A study of Mus musculus with 6 samples.

Results

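Acetylcholine is made, recycled, broken down and sensed by a small set of proteins, and 10 mouse genes for them were followed here in the cerebral cortex: choline acetyltransferase (Chat), the vesicular acetylcholine transporter (Slc18a3), the high-affinity choline transporter (Slc5a7), acetylcholinesterase (Ache), the muscarinic receptors Chrm1, Chrm2 and Chrm3, and the nicotinic receptor subunits Chrna4, Chrna7 and Chrnb2. The rule that found them used gene symbols and no measured value. They were looked up by symbol on the Affymetrix PM array strip for the mouse genome, where 9 of the 10 genes had 15 probe sets of 45077 in all. The short probes of a probe set are read together as 1 value for a transcript. Chat, Slc18a3, Slc5a7, Ache and Chrm3 had 1 probe set each, Chrm1 and Chrna7 had 2 each, and Chrna4 and Chrnb2 had 3 each. Chrm2 was matched to no probe set and was not analysed here.

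The arrays measured cortical RNA of 6 male mice, 2 in each of 3 groups. SAMP8 is a senescence-accelerated strain with early learning deficits, and SAMR1 is the related strain that resists accelerated senescence. The groups were SAMR1 given water (SAMR1), SAMP8 given water (SAMP8 control) and SAMP8 given sugarcane top ethanolic extract, STEE, by mouth at 20 mg/kg (STEE-fed SAMP8). Administration ran for 30 days and went on during 8 days of behavioral tests in every group, and the labels give an age of 16 weeks. In the methods, 16 weeks is the age of the SAMP8 mice before acclimatization, administration and tests. The cortex was thus taken at a later age. The methods describe single housing, a water maze and the thymidine analogue BrdU in the drinking water. The question put to the arrays was how the cortical transcriptome differed between the strains and with STEE, and the study measured acetylcholine itself in the same tissue. Between SAMR1 and SAMP8, strain background and senescence cannot be told apart.

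The authors deposited 1 average per group for each probe set, on the log2 scale and rounded to 2 decimals. Values of single mice were not used here, so there was no spread between replicates, and no difference given here has an error or a test. Rounding alone can move a difference by up to 0.01. A difference was counted as past the fold at an absolute log2 difference of at least 0.2, a linear ratio of 1.15, which is a rule of size and not of significance. With 6 arrays in all, precision is limited by their number.

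Acetylcholine is synthesised from choline and acetyl-CoA by choline acetyltransferase in the nerve ending, loaded into vesicles and released, then split by acetylcholinesterase in the synaptic cleft, and the choline is taken up again. Most cholinergic fibres in the cortex come from cell bodies in the basal forebrain, whose messenger RNA stays largely in the soma, so that a cortical RNA sample holds transcripts of the receptors of cortical cells and few of the afferent fibres. Some cortical interneurons, many of them Vip-positive, transcribe Chat themselves, and the neighbouring striatum has its own cholinergic interneurons. Muscarinic receptors are coupled to G proteins, and nicotinic receptors are ligand-gated cation channels built of subunits in a ring.

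The promoters of 3 genes are shown, and a link between promoter and expression was not tested. Ache had the largest difference of the 15 probe sets. Chat and Slc18a3 form 1 locus, in which Slc18a3 lies inside the Chat gene. Their differences with STEE were -0.15 and 0.06, and 53.4% of all probe sets differed by at least as much as Slc18a3. Each sequence is the RefSeq window of 250 bases before to 50 bases after the gene start on GRCm38.p6, 5′ to 3′ on the gene's strand. Capitals mark an E-box (CACGTG) or an Egr motif (GCGNGGGCG), both searched on both strands. The Ache window was chr5:137288004-137288303 on the plus strand, the Chat window chr14:32465860-32466159 on the minus strand and the Slc18a3 window chr14:32464801-32465100 on the minus strand.
Ache: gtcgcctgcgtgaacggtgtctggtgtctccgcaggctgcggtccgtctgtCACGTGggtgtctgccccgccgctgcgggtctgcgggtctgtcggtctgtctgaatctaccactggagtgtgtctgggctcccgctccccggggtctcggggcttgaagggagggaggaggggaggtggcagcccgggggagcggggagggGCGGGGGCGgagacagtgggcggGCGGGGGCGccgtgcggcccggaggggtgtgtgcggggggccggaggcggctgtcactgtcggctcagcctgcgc
Chat: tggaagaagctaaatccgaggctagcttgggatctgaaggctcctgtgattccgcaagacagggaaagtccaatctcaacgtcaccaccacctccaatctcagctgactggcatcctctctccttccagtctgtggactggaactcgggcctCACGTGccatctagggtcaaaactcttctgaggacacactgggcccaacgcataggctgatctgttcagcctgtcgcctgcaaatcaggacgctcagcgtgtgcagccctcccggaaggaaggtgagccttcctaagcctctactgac
Slc18a3: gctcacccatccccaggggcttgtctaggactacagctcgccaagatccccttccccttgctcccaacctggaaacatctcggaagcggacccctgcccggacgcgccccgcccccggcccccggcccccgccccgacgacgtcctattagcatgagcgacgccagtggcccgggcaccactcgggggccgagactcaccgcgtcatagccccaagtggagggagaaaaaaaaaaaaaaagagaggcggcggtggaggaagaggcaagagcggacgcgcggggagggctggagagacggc
The Ache window had a GC content of 74%, against 55.7% for Chat, 67% for Slc18a3 and a median of 52.7% over 32851 windows of the same length. It held 1 E-box, 2 Egr motifs and 4 GC boxes (GGGCGG), and both Egr motifs overlapped a GC box. The Chat window held 1 E-box and no match to the other motifs, and the Slc18a3 window held 2 GC boxes only. Of the 9 genes with a window (all but Chrm1), 3 had an E-box (Ache, Chat and Chrna7), 2 had an Egr motif (Ache and Chrna7) and 6 had a GC box, where 7.15%, 5.55% and 35.7% of all windows did. A match describes these letters and is not evidence of a bound site, and the motifs were chosen after the windows had been seen.

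The genes of the cholinergic nerve ending gave weak signals in all 3 groups. Over all probe sets the quartiles of the mean log2 signal were 3.18, 4.15 and 6.07, and 7 of the 15 cholinergic probe sets lay below the median. A probe set's brightness depends on its probes as well as on the transcript, so brightness is used here only to say how far a signal stands from the bottom of the scale and not to rank genes. Chat, the enzyme that makes acetylcholine, had log2 averages of 4.30 in SAMR1, 4.35 in SAMP8 control and 4.20 in the STEE-fed mice (probe set 1440070_PM_at). Chat was thus near the array's median, highest in SAMP8 control and lowest with STEE. The difference was 0.05 between SAMP8 control and SAMR1 and -0.15 between STEE-fed SAMP8 and SAMP8 control, and 13.8% of all probe sets differed by at least as much in that second comparison.

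Slc18a3, which fills synaptic vesicles with acetylcholine, had averages of 2.79 in SAMR1, 2.86 in SAMP8 control and 2.92 in the STEE-fed mice (1422203_PM_at). Its signal was at percentile 12.9 of the array, low on its scale. The averages ran upward in the order of the groups while those of Chat did not, and the differences of 0.07 and 0.06 were reached or exceeded by 55% and 53.4% of all probe sets. Slc5a7, which returns choline to the nerve ending, had averages of 3.43 in SAMR1 and 3.30 in both SAMP8 groups (1421428_PM_at, percentile 30.6). It was 0.13 lower in either SAMP8 group than in SAMR1, and its difference with STEE was 0.00. None of these 3 presynaptic genes was past the fold in any comparison.

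Ache, the enzyme that ends the signal by splitting acetylcholine, was the member with the largest difference between any groups. Its averages were 6.19 in SAMR1, 6.01 in SAMP8 control and 5.85 in the STEE-fed mice (1422635_PM_at), at percentile 74.3 of signal. SAMR1 was highest and STEE-fed SAMP8 lowest, so the average with STEE lay farther from SAMR1 than that of SAMP8 control did. SAMP8 control was 0.18 lower than SAMR1, a ratio of 0.883, and 16.8% of all probe sets differed by at least as much. STEE-fed SAMP8 was lower than SAMP8 control by a further 0.16, a ratio of 0.895, with 11.7% of all probe sets at or beyond it. Neither step was past the fold. Among the 5038 probe sets within 0.5 log2 of the same signal, 29.8% reached the first step and 17.8% the second. Between STEE-fed SAMP8 and SAMR1 the log2 difference was -0.34, a ratio of 0.79, which 4.47% of all probe sets reached, as did 9.61% of the 5038 probe sets within 0.5 log2 of the same signal. Ache has 1 probe set, so no second probe set of the gene speaks to this difference.

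**Figure D1:**
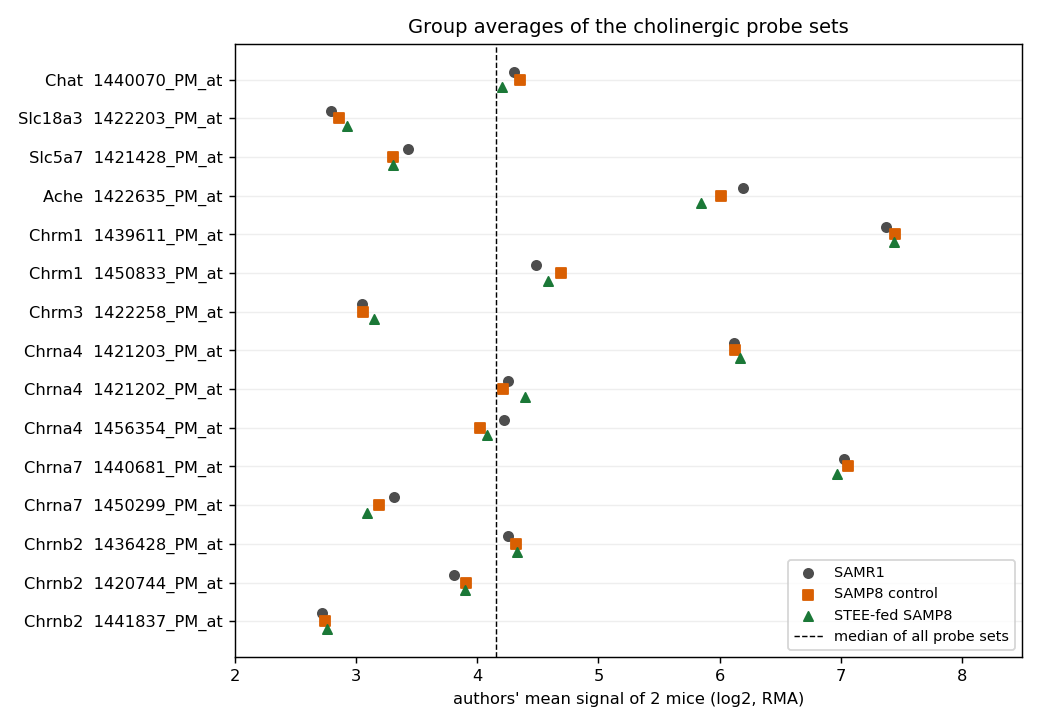
The horizontal axis gives the authors' mean signal of 2 mice on the log2 scale for the 15 probe sets of 9 cholinergic genes. Circles are SAMR1, squares SAMP8 control and triangles STEE-fed SAMP8, there are no error bars because only group averages were used, and the dashed line is the median of all probe sets. For Ache the symbols run from 6.19 to 5.85 in the order SAMR1, SAMP8 control, STEE-fed SAMP8, while for most probe sets they nearly overlap.

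Of the muscarinic receptors, Chrm1 is the main postsynaptic one of cortical pyramidal cells and acts through Gq and phospholipase C. Its brighter probe set had averages of 7.37 in SAMR1, 7.45 in SAMP8 control and 7.44 in the STEE-fed mice (1439611_PM_at, percentile 88.1). The groups lay within 0.08 of each other there, and SAMP8 control and STEE-fed SAMP8 differed by 0.01. The dimmer Chrm1 probe set had averages of 4.48, 4.69 and 4.58 in the same order of groups (1450833_PM_at). It was 0.21 higher in SAMP8 control relative to SAMR1, a ratio of 1.16 that 12.5% of all probe sets and 17.6% of the 6509 probe sets of like signal reached. Both Chrm1 probe sets were higher in SAMP8 control relative to SAMR1 and lower with STEE than in SAMP8 control, and only the dimmer was past the fold, in the strain comparison. Chrm3, another Gq-coupled receptor, had averages of 3.05, 3.06 and 3.15 (1422258_PM_at, percentile 21.5), a low signal whose largest difference was 0.10.

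Chrna4 and Chrnb2 form the high-affinity nicotinic receptor of the brain, and 1 of their probe sets, of Chrna4, reached the fold. The brightest Chrna4 probe set had averages of 6.12 in SAMR1, 6.13 in SAMP8 control and 6.17 in the STEE-fed mice (1421203_PM_at, percentile 75.7). A second probe set made from the same design transcript had averages of 4.25, 4.21 and 4.39 (1421202_PM_at). The third had averages of 4.22, 4.02 and 4.08 (1456354_PM_at). They gave no common account of the gene: SAMP8 control minus SAMR1 was 0.01, -0.04 and -0.20 in the order given, and the last lay exactly at the fold, where rounding could put it on either side, at a ratio of 0.871 that 13.7% of all probe sets reached. With STEE all 3 were higher than in SAMP8 control, by 0.04, 0.18 and 0.06, and none was past the fold. The difference of 0.18 was the largest with STEE among the 15 cholinergic probe sets. It was reached by 8.34% of all probe sets and 12.4% of the 7616 probe sets of like signal.

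Chrnb2, the beta subunit of the same receptor, had averages of 4.25, 4.32 and 4.33 for SAMR1, SAMP8 control and STEE-fed SAMP8 at its brightest probe set (1436428_PM_at). The others gave 3.81, 3.91 and 3.90 (1420744_PM_at) and 2.72, 2.74 and 2.76 (1441837_PM_at). All 3 were higher in SAMP8 control relative to SAMR1, by 0.02 to 0.10, and within 0.02 of SAMP8 control with STEE. Chrna7, whose product forms receptors of 1 kind of subunit with a high calcium permeability, had averages of 7.03, 7.06 and 6.97 at its brighter probe set (1440681_PM_at, percentile 84.7). The dimmer gave 3.31, 3.19 and 3.09 (1450299_PM_at, percentile 25.5). Both were lower in the STEE-fed mice than in SAMP8 control, by 0.09 and 0.10. Against SAMR1 the dimmer was 0.22 lower in STEE-fed SAMP8, a ratio of 0.859 that 4.34% of the 14920 probe sets of like signal and 12.5% of all probe sets reached, while the brighter was 0.06 lower.

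Counted together, few cholinergic probe sets were past the fold, and in both comparisons with SAMR1 their share was near that of the whole array. In SAMP8 control against SAMR1, 2 of 15 were past the fold (13.3%), with Chrm1 higher and Chrna4 lower at 1 of their probe sets each, where 13.7% of all probe sets were past it. In STEE-fed SAMP8 against SAMP8 control 0 of 15 were, where 6.07% of all probe sets were. In STEE-fed SAMP8 against SAMR1, 2 of 15 were (13.3%), Ache and the dimmer Chrna7 probe set, both lower, where 15.1% of all probe sets were. The median differences were 0.02, 0.00 and 0.05 in the order of these comparisons, against 0.00, 0.00 and -0.01 over all probe sets. Without regard to sign the medians were 0.07, 0.06 and 0.10, against 0.07, 0.06 and 0.08. With STEE, 7 cholinergic probe sets were higher than in SAMP8 control, 7 were lower and 1 was equal. The comparisons share arrays (the SAMP8 control arrays enter the first and the second), so they are not independent of each other, and the third is the sum of both.

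**Figure D2:**
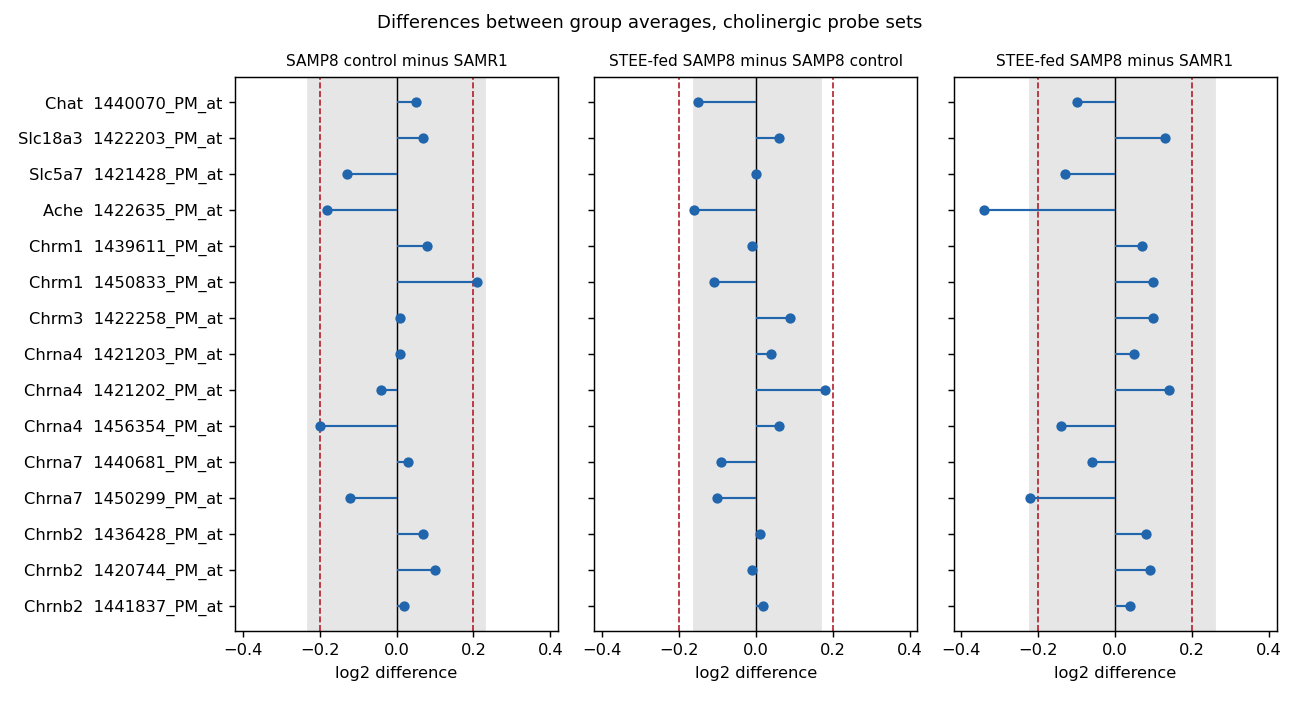
Each point is the log2 difference between the group averages named above its panel for 1 cholinergic probe set, with a line from 0. The dashed lines mark the fold of 0.2 and the grey band holds the middle of all probe sets, from the 5th to the 95th percentile. Of the points, 2 reach the dashed lines in SAMP8 control minus SAMR1, 0 in STEE-fed SAMP8 minus SAMP8 control and 2 in STEE-fed SAMP8 minus SAMR1, where Ache at -0.34 lies outside the band. The band is not matched for signal, and 9.61% of the 5038 probe sets within 0.5 log2 of the Ache signal reached that difference.

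How far probe sets of 1 gene disagree gives a scale for these differences. They read the same RNA and are not replicates of a condition. Over 2398 genes with 3 probe sets, the differences of a gene spanned a median of 0.17 in SAMP8 control minus SAMR1 and 0.14 in STEE-fed SAMP8 minus SAMP8 control, and over 5284 genes with 2 probe sets the medians were 0.10 and 0.08. The 3 Chrna4 probe sets spanned 0.21 and 0.14, those of Chrnb2 0.08 and 0.03, those of Chrm1 0.13 and 0.10, and those of Chrna7 0.15 and 0.01. Chrna4, Chrm1 and Chrna7 thus spanned more than the usual gene in the strain comparison and Chrnb2 less. In the strain comparison the 2 Chrm1 probe sets shared a sign, at 0.08 and 0.21. The 3 Chrna4 probe sets, at 0.01, -0.04 and -0.20, did not.

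The other genes of the pathway were taken from fixed lists of 52 genes, of which 50 had a probe set, with the brightest probe set standing for each. Every count over a list below rests on that probe set, and dimmer probe sets of some genes went past the fold where the brightest did not. SAMP8 control was past the fold above SAMR1 for 4 of them and below it for 4 (8% each), where 6.45% and 6.14% of all symbols were, with a median of -0.04. In STEE-fed SAMP8 against SAMP8 control, 0 were higher and 1 was lower past the fold (2%), where 3.05% and 2.67% of all symbols were, with a median of 0.03. In STEE-fed SAMP8 against SAMR1, 5 were higher and 5 lower past the fold (10% each), where 8.19% and 6.01% of all symbols were, with a median of -0.005.

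Among the receptors outside the group, Chrm4, the Gi-coupled muscarinic receptor abundant in striatum, had averages of 3.94 in SAMR1, 4.20 in SAMP8 control and 4.03 in the STEE-fed mice, 0.26 higher in SAMP8 control relative to SAMR1. Like the dimmer Chrm1 probe set it was highest in SAMP8 control. Chrm5 and Chrna10 had no probe set under these symbols. None of 7 other neuronal nicotinic subunits was past the fold at its brightest probe set, their strain differences lying between -0.14 and 0.15 and those with STEE between -0.08 and 0.13. Chrna3, the alpha subunit of ganglionic receptors, had the highest signal of them at 4.38, 4.32 and 4.36, and of its 3 probe sets 2 were lower with STEE, the lowest at -0.29. None of 5 subunits of the muscle receptor was past the fold either, and Chrnd, the highest of them, had averages of 4.18, 4.24 and 4.13.

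Of 7 chaperones and Ly6-family modulators of nicotinic receptors, 1 was higher and 1 lower past the fold in SAMP8 control relative to SAMR1, and 0 differed past the fold with STEE. Ric3, which helps assemble alpha7 receptors, had averages of 5.30 in SAMR1, 5.0 in SAMP8 control and 5.11 in the STEE-fed mice. It was 0.30 lower in SAMP8 control at this probe set, but its 3 probe sets ran from -0.30 to 0.11. Ly6e, a GPI-anchored protein of the same family as the other modulators, had averages of 7.42, 7.70 and 7.89, 0.28 higher in SAMP8 control relative to SAMR1 and 0.47 higher in the STEE-fed mice than in SAMR1. Its other probe set differed by -0.08 in the strain comparison, and the brighter one has a name ending in _s_at, which marks probes that can match more than 1 transcript. Tmem35a, the alpha7 chaperone NACHO, listed under its older symbol Tmem35, had averages of 7.44, 7.52 and 7.64 and was 0.20 higher in the STEE-fed mice than in SAMR1. Ly6h, which lowers alpha7 surface levels, was the brightest at 9.35, 9.21 and 9.24.

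None of the 3 cholinesterase partners, Bche, Prima1 and Colq, was past the fold in any comparison. Bche, the butyrylcholinesterase that can also split acetylcholine, had averages of 4.01, 3.92 and 4.05, and its 3 probe sets differed with STEE by -0.14 to 0.13. Ngfr, a neurotrophin receptor of basal forebrain cholinergic neurons, was not past the fold either, with averages of 4.34, 4.22 and 4.26.

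Choline uptake and metabolism was the pathway list with the most genes past the fold on the lower side by their brightest probe sets. The list was singled out here after the counts were seen, and its counts were not tested. Of its 10 genes, 2 were lower past the fold in SAMP8 control relative to SAMR1, where 6.14% of all symbols were. In the STEE-fed mice 1 was lower past the fold than in SAMP8 control and 4 than in SAMR1, where 2.67% and 6.01% of all symbols were. In these comparisons 0 were higher past the fold, where 6.45%, 3.05% and 8.19% of all symbols were. The medians of the list were -0.095, -0.03 and -0.11 in the same order. Dimmer probe sets went the other way as well: in the strain comparison Acly reached 0.43 and Chka 0.32. Gpcpd1, a glycerophosphocholine phosphodiesterase named here after its values were seen, was lower in SAMP8 control at all 4 of its probe sets, with differences of -0.55 to -0.13, and higher with STEE at all 4, by 0.10 to 0.46. Slc44a2, a choline transporter-like protein, had averages of 7.05 in SAMR1, 6.71 in SAMP8 control and 6.75 in the STEE-fed mice, but its 3 probe sets differed between -0.34 and 0.06 in the strain comparison. Chkb, a choline kinase, had averages of 6.93, 6.67 and 6.81, with both of its probe sets lower in SAMP8 control.

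The other genes of the 4 that were lower past the fold in the STEE-fed mice than in SAMR1, beside Slc44a2, were Chdh, Chka and Slc44a1. Chdh, which oxidises choline to betaine aldehyde, had averages of 3.99 in SAMR1, 3.91 in SAMP8 control and 3.64 in the STEE-fed mice, a weak signal, and at -0.27 it was the only pathway gene whose brightest probe set was past the fold with STEE. Chka, the other choline kinase, had averages of 7.14, 7.02 and 6.83, and all 3 of its probe sets were lower with STEE than in SAMP8 control, by 0.02 to 0.24, but 2 of the 3 were above SAMR1 in the STEE-fed mice, by up to 0.08. Slc44a1, a choline transporter of many cell types, had averages of 7.72, 7.61 and 7.47, and all 4 of its probe sets were lower in the STEE-fed mice than in SAMR1. Acly, which supplies acetyl-CoA, was the brightest of the list at 8.81, 8.94 and 8.94.

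Of 15 genes of muscarinic signal transduction, 2 were higher and 1 lower past the fold in SAMP8 control relative to SAMR1. In the STEE-fed mice 0 were past the fold against SAMP8 control, and 3 were higher and 1 lower past it against SAMR1. Plcb1, the phospholipase C downstream of Chrm1 in cortex, had averages of 9.16 in SAMR1 and 9.52 in both SAMP8 groups, and 4 of its 5 probe sets were higher in SAMP8 control. Rgs4, which shortens Gq and Gi signals, had averages of 9.46, 9.77 and 9.82, and its 3 probe sets were 0.31 to 0.86 higher in SAMP8 control. Gnai2, a Gi alpha subunit, had averages of 8.71, 8.46 and 8.48, with both probe sets lower in SAMP8 control. With STEE the probe sets of Plcb1 differed from SAMP8 control by -0.24 to 0.00, those of Rgs4 by 0.05 to 0.06 and those of Gnai2 by -0.05 to 0.02. Kcnq5, a subunit of the M-current channel that muscarinic receptors close, had averages of 7.33, 7.49 and 7.55, and Gnai1, the brightest, 10.16, 10.31 and 10.26.

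**Figure D3:**
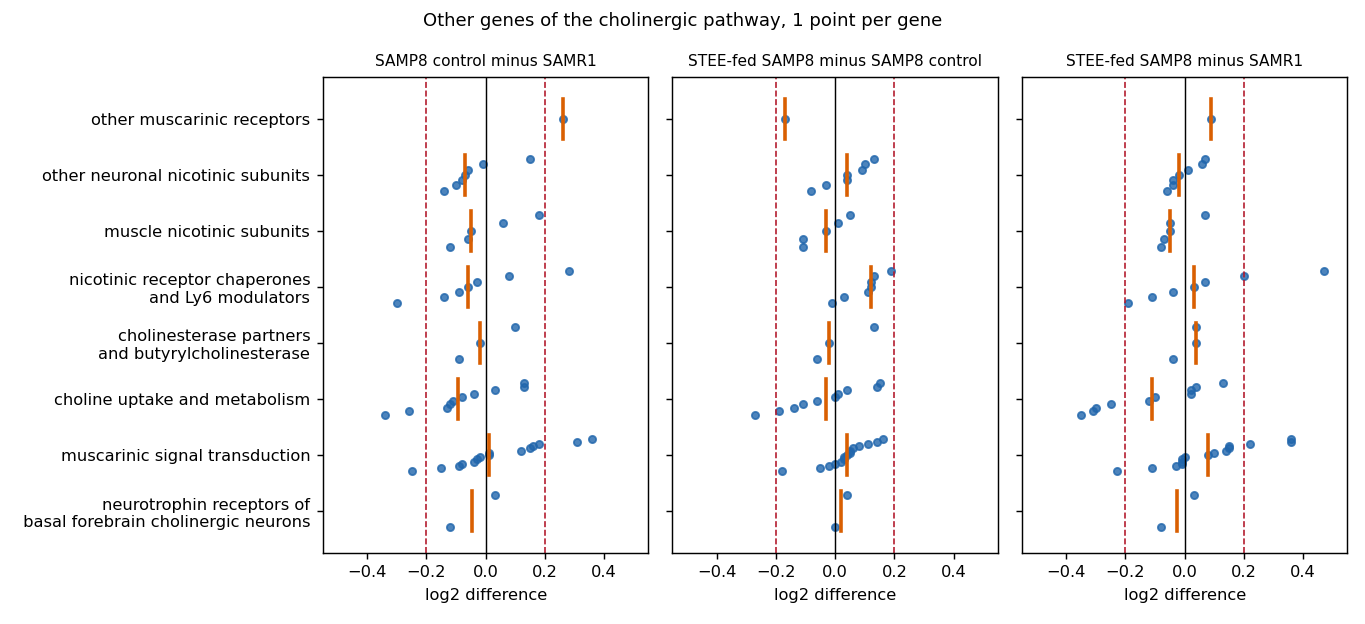
Each point is the log2 difference of 1 gene, read from its brightest probe set, for the comparison named above the panel, with 1 line per list of pathway genes. The dashed lines mark the fold of 0.2 and the upright bars the median of each list. Neuronal and muscle nicotinic subunits stay within the dashed lines in every panel at their brightest probe sets, choline uptake and metabolism reaches -0.34 in SAMP8 control minus SAMR1, and muscarinic signal transduction reaches 0.36 there.

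The tissue label was checked against markers of cortex and of other regions and cell types. The 8 markers of cortical excitatory neurons were present in all groups, with median log2 averages of 7.335 in SAMR1, 7.33 in SAMP8 control and 7.34 in the STEE-fed mice. In the strain comparison Neurod6 (-0.25) and Cux2 (-0.27) were lower past the fold, and with STEE 3 were higher past the fold (Cux2 0.30, Tbr1 0.29 and Fezf2 0.27). Tbr1, a transcription factor of deep-layer neurons, was the brightest at 8.12, 8.28 and 8.57.

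Transcription factors that mark cholinergic neurons of the basal forebrain gave weak signals. Over the 5 genes Lhx8, Isl1, Gbx1, Nkx2-1 and Zic4, the median averages were 3.72, 3.66 and 3.65 in the same order of groups, and none was past the fold in any comparison at its brightest probe set. Isl1, the brightest, had averages of 4.55, 4.62 and 4.56, while its dimmer probe set was 0.28 lower in either SAMP8 group against SAMR1. In the strain comparison, the 4 genes taken as markers of the interneurons among which cortical Chat-transcribing cells are found differed more than Chat did. With STEE, Vip at 0.14 and Cck at 0.00 differed less than Chat, and Crh and Calb2 more. Vip, the peptide that names these interneurons, had averages of 7.84, 8.71 and 8.85, Crh had 5.04, 5.84 and 6.15, and Cck had 9.54, 9.75 and 9.75, each higher in SAMP8 control relative to SAMR1. Calb2, a calcium-binding protein of the same interneurons, went its own way at 6.94, 6.83 and 6.10, lower with STEE by 0.73. Over the same comparisons Chat differed by 0.05 and -0.15, and the part of these markers in the Chat values was not tested. In bulk tissue, fewer cells of a type and less RNA per cell cannot be told apart.

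Markers of regions that border the cortex differed between the groups, and striatum bears on the cholinergic genes because its interneurons and projection neurons transcribe several of them. All 8 striatal projection neuron markers were higher in SAMP8 control relative to SAMR1, by 0.32 to 1.03 with a median of 0.775, and their median averages were 7.30, 7.98 and 8.055. With STEE they differed from SAMP8 control by -0.09 to 0.18. The strain difference was 1.03 for Gpr6, 0.89 for Drd1, 0.87 for Ppp1r1b, 0.72 for Penk and 0.32 for Rgs9, whose 3 probe sets ran from -0.07 to 0.45. Over the same comparison Chrm4 differed by 0.26, Chrm1 by 0.08 and 0.21, Chat by 0.05 and Ache by -0.18, and the part of the striatal markers in these values was not tested.

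Thalamic and habenular markers were lower in SAMP8 control relative to SAMR1, 3 of 5 past the fold, by up to 0.97 (Tcf7l2 -0.97, Prkcd -0.78 and Slc17a6 -0.73). In the STEE-fed mice 4 of 5 were lower past the fold than in SAMR1, Lef1 at -0.32 among them. With STEE, Slc17a6 was 0.24 higher than in SAMP8 control and the others differed by -0.18 to -0.03. Of 4 hippocampal markers, Dsp at -0.56 and Lct at -0.42 were lower in SAMP8 control, Prox1 was -0.22 in STEE-fed SAMP8 against SAMR1, and Wfs1 was 0.22 higher with STEE. Of 5 oligodendrocyte markers 3 were lower past the fold in SAMP8 control, Mog at -0.63, Mobp at -0.39 and Mag at -0.31, and Mbp, the brightest, had averages of 12.18, 12.03 and 11.95. Ache, Chrna4 and Chrnb2 are also transcribed in thalamus and habenula, and the part of these markers in the Ache difference of -0.18 was not tested. Ttr, a choroid plexus gene, had averages of 10.20, 8.24 and 9.33, and all 4 of its probe sets had this order. Folr1 and Aqp1 of the same tissue were within 0.13 between groups, and Kl was within 0.02 at its brighter probe set, while the dimmer differed by -0.34 in the strain comparison and by 0.09 with STEE. The astrocyte marker Gfap was 0.21 higher in SAMP8 control and 0.22 lower with STEE, Aqp4 was 0.21 lower in the STEE-fed mice than in SAMR1, and Slc1a3 was the brightest of them at 9.25, 9.15 and 9.21. The microglial marker Csf1r was 0.21 lower in SAMP8 control, and Aif1 was 0.27 higher in the STEE-fed mice than in SAMR1. None of the 3 blood markers was past the fold, and Hba-a1 had averages of 10.15, 10.16 and 10.17.

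**Figure D4:**
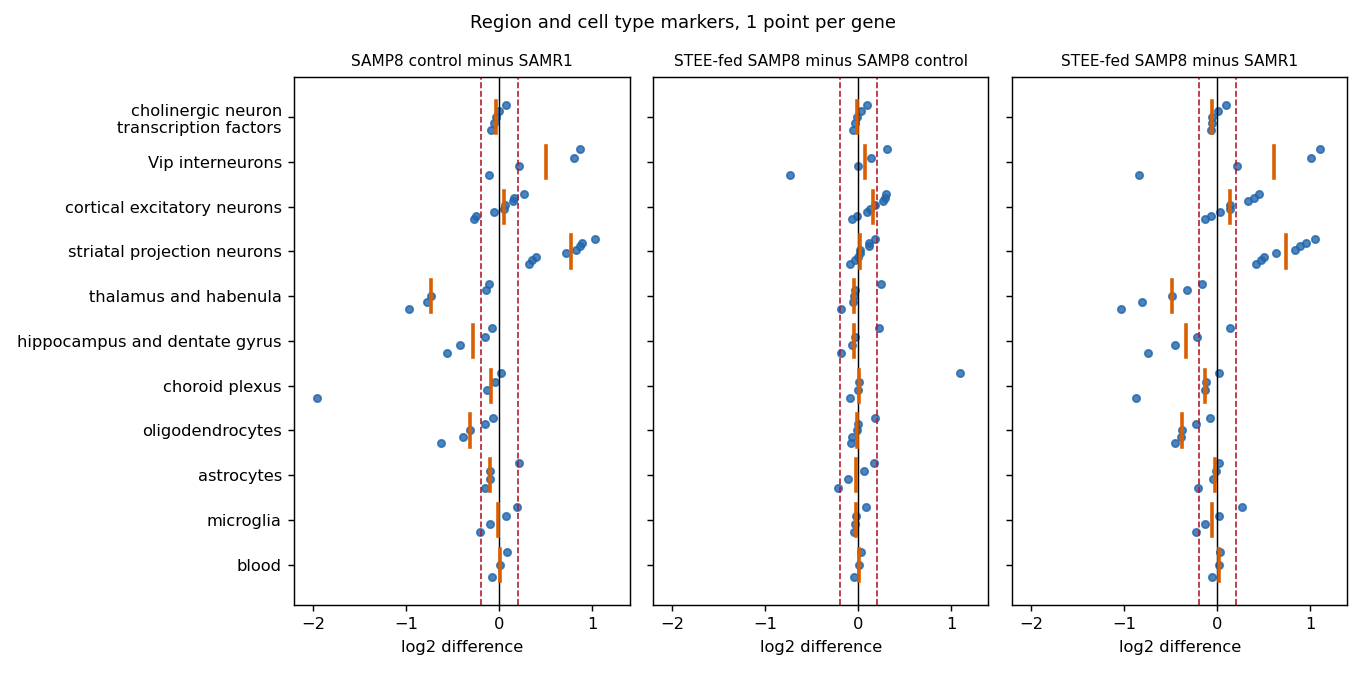
Each point is the log2 difference of 1 marker gene, read from its brightest probe set, for the comparison named above the panel, with 1 line per region or cell type. The dashed lines mark the fold of 0.2 and the upright bars the median of each list. All 8 striatal markers lie right of the dashed line in SAMP8 control minus SAMR1 (0.32 to 1.03) and within -0.09 and 0.18 in STEE-fed SAMP8 minus SAMP8 control, and the 5 markers of cholinergic neurons, at their brightest probe sets, lie within the dashed lines in every panel.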

How the data were processed

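RNA from the cerebral cortex of 6 mice was labelled with a 3' IVT PLUS kit and hybridised to Affymetrix PM array strips for the mouse genome, and the authors summarised the intensities with RMA in Expression Console and averaged them in Transcriptome Analysis Console. The 2 tables the authors deposited hold log2 group averages (bi-weight, 2 decimals) for 45077 probe sets. The SAMP8 control averages were the same in both tables. The 6 columns of the authors' own comparisons, which hold fold changes, p-values and FDR p-values, were not used, so no test was run. Groups were taken from the sample titles.

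Symbols were split where an entry held several, which gave 22527. Python 3.11.15, numpy 2.4.6, pandas 2.3.3 and matplotlib 3.10.9 were used. Only the count past the fold was tested on simulated data, with planted changes far above the fold. The members and lists were chosen with earlier results of these data known. Beside the members, the text names genes whose brightest probe set was past the fold in any comparison, up to 6 a list, and the brightest gene of each list; some genes of the lists are not reported here by name. Drd1 and Tmem35a were matched through RefSeq synonyms (Drd1a and Tmem35). Promoter windows were read from RefSeq on GRCm38.p6. Alternatives were the size of the fold, a filter on low signal, centring, probe sets that can match several transcripts, and the value taken per gene.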

Additional observations from a re-analysis of the deposited data

How the results depend on the processing

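At a fold of 0.1 on the log2 scale, 6 of the 15 cholinergic probe sets were past it in SAMP8 control against SAMR1, 5 in STEE-fed SAMP8 against SAMP8 control and 9 in STEE-fed SAMP8 against SAMR1, where a fold of 0.2 gave 2, 0 and 2. Of all probe sets, 39.9%, 30.4% and 41.8% were past a fold of 0.1 in the same order of comparisons. At a fold of 0.3 the first and the third counts were 0 and 1, the last being Ache at -0.34. That difference was reached by 4.47% of all probe sets and 9.61% of those of like signal. The share of all probe sets past a fold of 0.3 was not computed. With the 7 cholinergic probe sets below the array's median signal left out, the first and the third counts at the fold of 0.2 were 1 and 1. The share past the fold among all probe sets of such signal was not computed. The median differences were then 0.04 in SAMP8 control against SAMR1 and -0.05 in STEE-fed SAMP8 against SAMP8 control, where all 15 probe sets gave 0.02 and 0.00. With each group centred on its median the count in SAMP8 control against SAMR1 was 1, since the Chrna4 probe set at the fold no longer reached it. With the mean over the probe sets of a gene as its value, the median of STEE-fed SAMP8 against SAMR1 was 0.017 and not 0.05. The other 19 alternatives for counts and medians stayed within 1.5 times the count or within rounding of the median. Averaging probe sets moved 8 of 27 differences of single genes by more than rounding, all in Chrm1, Chrna4 and Chrna7, and turned the small strain differences of Chrna4 (0.01 to -0.077) and Chrna7 (0.03 to -0.045). No paired analysis was possible because only 1 average per group was used, and for the same reason no replicate could be left out in turn. Weak signals limit Slc18a3, Chrm3, Slc5a7, 1 Chrna7 probe set and 1 Chrnb2 probe set.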
